A study of Mus musculus with 12 samples.

Results

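The genes described here, 8 of the 23715 in the files, were chosen by name as signals through which osteoblast-lineage cells control osteoclasts: *Tnfsf11*, *Tnfrsf11b*, *Csf1*, *Il34*, *Sema3a*, *Il6*, *Ccl2* and *Cxcl12*. No measured value was used to choose them, although the choice was made with earlier results of these data known. RNA-seq libraries were made from the calvaria of 12 individual newborn C57BL/6 mice, in 4 groups of 3. The *Med23* set compared *Med23*MSC-/- mice (P-KO), in which Prx1-Cre deleted floxed *Med23* in the mesenchymal lineage, with control littermates (P-Ctrl), labelled WT. The *Runx2* set compared *Runx2*+/- mice (R-Het) with WT mice (R-WT), and the question was how far loss of the Mediator subunit and loss of 1 copy of the osteoblast transcription factor *Runx2* resembled each other. The deposited labels call the mice newborn and the tissue calvaria, and the methods give the parietal bone at postnatal day 2. Prx1-Cre acts in limb and part of the craniofacial mesenchyme, so that osteoclasts, which come from blood-forming cells, and other cells outside that lineage keep *Med23*, whereas the *Runx2*+/- mice carry 1 functional copy in every cell.

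Osteoclasts, the cells that resorb bone, form by fusion of monocyte-lineage precursors under the control of osteoblast-lineage cells. RANKL, encoded by *Tnfsf11*, binds its receptor RANK on the precursors and drives their differentiation, and osteoprotegerin, encoded by *Tnfrsf11b*, is a secreted decoy receptor that captures RANKL. M-CSF (*Csf1*) and IL-34 (*Il34*) both act on the receptor CSF1R and keep the precursors alive, *Sema3a* restrains osteoclast formation through neuropilin 1, and *Il6*, *Ccl2* and *Cxcl12* encode a cytokine and chemokines that act on osteoblasts or recruit monocytes and blood-forming cells.

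In *Med23*MSC-/- calvaria the CSF1R ligand *Il34* was called lower and *Sema3a* higher (limma adjusted p = 0.0446 and 0.0495, call under 0.05). Of all genes tested in that set, 1.57% were called. Both calls were lost when any mouse of the set was left out and under some other settings given below. By the level of the transcript *Xist*, some control mice of this set were female and all mutant mice were male. *Csf1*, *Tnfsf11* and *Tnfrsf11b* were lower and *Cxcl12* higher in all 3 mutant mice than in any control, without passing the test. In *Runx2*+/- calvaria no member passed the test, but *Tnfsf11* was lower and *Sema3a* and *Cxcl12* were higher in all 3 mutant mice than in any WT mouse. For *Tnfsf11* the highest mutant and the lowest WT mouse were close (12.85 and 12.89 FPKM). With 3 mice against 3, groups did not overlap for 27.3% of all genes tested in the *Med23* set and 21.1% in the *Runx2* set. The *Tnfsf11* to *Tnfrsf11b* ratio was lower in all 3 *Runx2*+/- mice than in any WT mouse and overlapped between *Med23*MSC-/- and control mice.

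All values are FPKM, a level scaled to transcript length and library depth, summed over the RefSeq transcripts of a gene. A gene was tested where at least 3 of the 12 mice had at least 1 FPKM. This left 13059 genes, among them 7 of the 8 members, and *Il6* was too low. Fold changes are differences of log2(FPKM + 1), which understates the change of low genes. The limma p-values rest on the spread between these 3 mice per group, moderated toward a trend over all genes tested. Without this moderation 0 genes were called in the *Med23* set and 1 in the *Runx2* set.

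*Med23* itself was at 5.32 ± 0.732 FPKM in controls and 5.30 ± 0.425 FPKM in *Med23*MSC-/- mice (mean ± SD, n = 3 in this and all later values), with a log2 fold change of 0.00 (SE 0.12). This sum also covers exons outside the deleted part and cells outside the Prx1 lineage, and their part in it was not tested. It does not check the labels. *Runx2* was at 31.6 ± 5.39 FPKM in WT and 33.5 ± 2.76 FPKM in *Runx2*+/- mice, with a log2 fold change of 0.09 (SE 0.13, limma adjusted p = 0.796). The labels of that set are likewise not checked by it. Why neither targeted gene was lower was not tested. The 11 osteoblast markers were high in every library, summing to between 26909.7 and 57952 FPKM. *Xist*, a transcript of the inactive X chromosome, was at 49.1 and 37.8 FPKM in control mice 2 and 3 and at 42.4 FPKM in WT mouse 1, and at most 0.0663 FPKM in the other 9 mice, so all mutant mice were male by this measure. The 10 skeletal muscle markers listed summed to 25.2 to 1559 FPKM in control and 671 to 4690.3 FPKM in *Med23*MSC-/- mice, and to 2153 to 6426 FPKM in WT and 29.4 to 208 FPKM in *Runx2*+/- mice. The part of sex and of muscle in the differences below was examined only by fits among male mice and with the muscle markers as a covariate. In the *Runx2* set the marker sums did not overlap between the groups. There the covariate fit cannot separate muscle from genotype, and its values below are not effects freed of muscle.

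The level of the members differed widely. *Cxcl12* was highest in all 4 groups, with group means from 103 to 203 FPKM, and its range was separate from that of the next gene. In control mice *Csf1* (26.8 ± 4.77 FPKM), *Ccl2* (19.0 ± 6.26 FPKM), *Tnfsf11* (16.9 ± 4.55 FPKM) and *Tnfrsf11b* (16.3 ± 2.76 FPKM) followed, each neighbour overlapping the next over the mice. *Sema3a* (8.11 ± 0.515 FPKM), *Il34* (6.83 ± 0.709 FPKM) and *Il6* (0.859 ± 0.301 FPKM) followed with separate ranges. WT mice gave the same order except that *Tnfrsf11b* (18.2 ± 4.58 FPKM) stood above *Tnfsf11* (14.9 ± 1.76 FPKM), and these ranges overlapped. In *Med23*MSC-/- mice *Sema3a* stood above *Tnfsf11* and *Tnfrsf11b*, and in *Runx2*+/- mice above *Tnfsf11*. In both mutants the ranges of *Sema3a* and *Tnfsf11* overlapped.

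**Figure D1:**
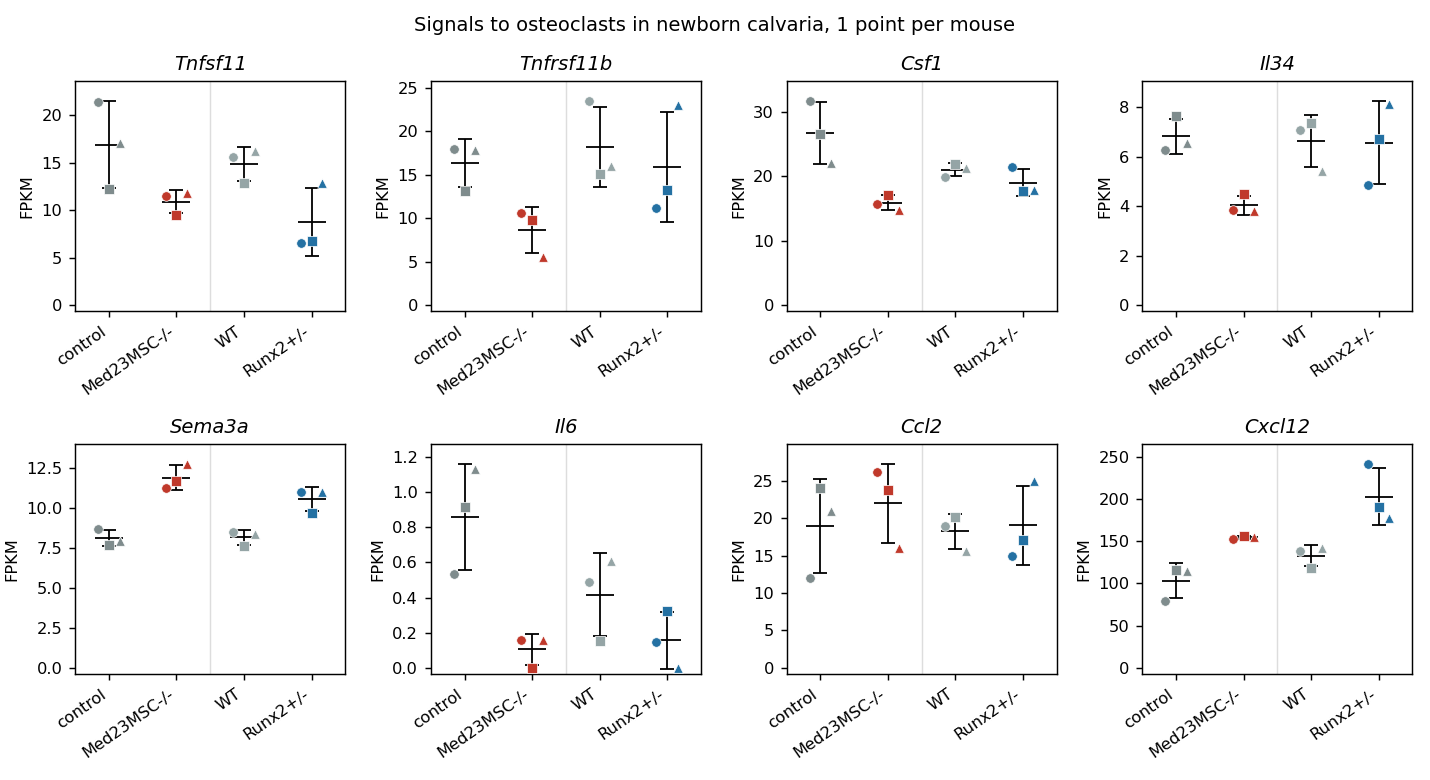
FPKM (y axis, from 0) of the 8 genes in each of the 12 mice, in control, *Med23*MSC-/-, WT and *Runx2*+/- mice. Circles, squares and triangles are mice 1, 2 and 3 of a group, and the black lines give the mean and SD. *Sema3a* and *Cxcl12* are above the controls in all mice of both mutants, *Tnfsf11* is below them, and *Csf1*, *Il34* and *Tnfrsf11b* are below them in *Med23*MSC-/- mice and overlap in *Runx2*+/- mice.

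The promoters of 4 members that were separate between groups are shown because RUNX factors bind the core TGTGGT and both mutants concern a RUNX2 pathway. The windows are the 250 bases before a RefSeq start site (GRCm38.p6, written 5′ to 3′ on the gene's strand). The core TGTGGT, searched on both strands, is in capitals. *Tnfsf11* is at chr14:78308044-78308293 (minus strand), *Csf1* at chr3:107760470-107760719 (minus strand), *Sema3a* at chr5:13396534-13396783 (plus strand, before a start site inside the gene's span) and *Cxcl12* at chr6:117168285-117168534 (plus strand).
Tnfsf11: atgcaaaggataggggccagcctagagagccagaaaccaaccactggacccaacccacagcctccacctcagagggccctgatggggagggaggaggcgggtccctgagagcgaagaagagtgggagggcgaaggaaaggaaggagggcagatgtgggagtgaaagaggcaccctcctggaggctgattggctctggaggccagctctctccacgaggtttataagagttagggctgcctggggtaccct
Csf1: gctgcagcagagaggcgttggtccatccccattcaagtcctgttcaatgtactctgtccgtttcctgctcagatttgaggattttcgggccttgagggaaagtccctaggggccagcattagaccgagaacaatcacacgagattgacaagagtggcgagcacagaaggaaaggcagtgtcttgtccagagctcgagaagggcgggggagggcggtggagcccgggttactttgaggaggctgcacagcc
Sema3a: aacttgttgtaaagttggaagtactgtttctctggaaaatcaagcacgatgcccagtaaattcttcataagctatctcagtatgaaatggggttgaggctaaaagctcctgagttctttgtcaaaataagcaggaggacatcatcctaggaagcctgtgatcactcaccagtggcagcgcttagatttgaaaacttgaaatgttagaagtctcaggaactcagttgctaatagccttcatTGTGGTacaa
Cxcl12: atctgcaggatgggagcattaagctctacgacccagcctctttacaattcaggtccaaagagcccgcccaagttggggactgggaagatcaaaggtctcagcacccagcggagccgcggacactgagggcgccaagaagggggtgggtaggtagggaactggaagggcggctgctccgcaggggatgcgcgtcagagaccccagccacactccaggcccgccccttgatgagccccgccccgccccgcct
The core was found 1 time in the *Sema3a* window, with its first base at -10 from the start site, and in none of the *Tnfsf11*, *Csf1*, *Cxcl12* and *Il6* windows. Of all 32851 promoter windows of that length, 14.0% held it. The AP-1 motif TGANTCA, which does not overlap the core, was found in the *Il6* window alone among these 5, with its first base at -249, and in 6.75% of all windows. A match is a description of letters, and its absence says only that these letters are not in the window. *Tnfrsf11b*, *Il34* and *Ccl2* were not matched to a window.

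*Tnfsf11* (chr14:78277446-78308043, minus strand, GRCm38.p6) is the ligand that osteoclast precursors need. It measured 21.4, 12.3 and 17.1 FPKM in control mice 1 to 3 and 11.5, 9.52 and 11.77 FPKM in *Med23*MSC-/- mice. All mutant mice were below all controls, but the lowest control and the highest mutant mouse were close. The log2 fold change was -0.56 (SE 0.19, 95% interval -1.002 to -0.120, limma adjusted p = 0.159). In the *Runx2* set it measured 15.6, 12.9 and 16.2 FPKM in WT and 6.57, 6.74 and 12.9 FPKM in *Runx2*+/- mice. *Runx2*+/- mice 1 and 2 were far below every WT mouse, and mouse 3 was at the level of the lowest WT mouse. The log2 fold change was -0.76 (SE 0.23, 95% interval -1.29 to -0.24, limma adjusted p = 0.1596). Without *Runx2*+/- mouse 3 it was -1.05 and passed the test (limma adjusted p = 0.0267), and without any 1 of the other 5 mice it lay between -0.86 and -0.61 and did not (limma adjusted p from 0.198 to 0.386). With the muscle markers as a covariate it was -1.80 (SE 0.56, limma adjusted p = 0.544). Among male mice alone, which leaves 1 control, the change in the *Med23* set was -0.91 (limma adjusted p = 0.148). The changes in the 2 sets differed by 0.20 (SE 0.33, limma adjusted p = 0.821), with an interval of -0.52 to 0.92.

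*Tnfrsf11b* (chr15:54250619-54278484, minus strand) encodes the decoy receptor. It measured 18.0, 13.1 and 17.8 FPKM in control and 10.6, 9.75 and 5.57 FPKM in *Med23*MSC-/- mice. Every mutant mouse was below every control, and mouse 3 was the lowest. This was a log2 fold change of -0.87 (SE 0.23, 95% interval -1.41 to -0.34, limma adjusted p = 0.0990). Across the *Runx2* set it measured 23.4, 15.1 and 15.97 FPKM in WT and 11.2, 13.3 and 23.0 FPKM in *Runx2*+/- mice. The groups overlapped, since *Runx2*+/- mouse 3 was as high as the highest WT mouse, and the same mouse was the highest of its group for *Tnfsf11*. The log2 fold change was -0.22 (SE 0.26, limma adjusted p = 0.740), with an interval of -0.82 to 0.38. It lay between -0.51 and -0.02 when 1 mouse was left out, so that its size in this set depends on single mice. With the muscle markers as a covariate it was -1.74 (SE 0.52, limma adjusted p = 0.534), in a fit that cannot separate muscle from genotype here. The difference between the sets was -0.65 (SE 0.39, limma adjusted p = 0.464).

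The ratio of *Tnfsf11* to *Tnfrsf11b* FPKM in 1 mouse does not depend on the scale of its library. It was 1.19, 0.936 and 0.961 in control mice (1.03 ± 0.139) and 1.083, 0.976 and 2.11 in *Med23*MSC-/- mice (1.39 ± 0.627). The groups overlapped, and only mouse 3, the mouse with the lowest *Tnfrsf11b*, stood apart. By an exact permutation test (two-sided, 20 assignments) p was 0.5, and without that mouse the difference in means was 0.00154. In WT mice the ratio was 0.664, 0.855 and 1.01 (0.845 ± 0.175), and in *Runx2*+/- mice it was 0.586, 0.508 and 0.558 (0.551 ± 0.0393). All *Runx2*+/- mice were below all WT mice and close to each other, mouse 3 included, which had the highest level of both genes in its group. By the same exact permutation test p was 0.1, below which 3 mice against 3 cannot go. The change in the log2 ratio differed between the sets by 0.95 (exact permutation p = 0.035 over 400 assignments). This test shuffled genotypes within both sets, so its p-value refers to no effect of genotype in either set. Whether the 2 changes were equal was not tested by it. Adjusted over the 3 tests of the ratio, the exact permutation p-values were 0.5, 0.15 and 0.105. Without *Med23*MSC-/- mouse 3 the difference was 0.607 (exact permutation p = 0.08), and without control mouse 2 or 3 or any *Runx2*+/- mouse its exact permutation p lay between 0.06 and 0.085.

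**Figure D2:**
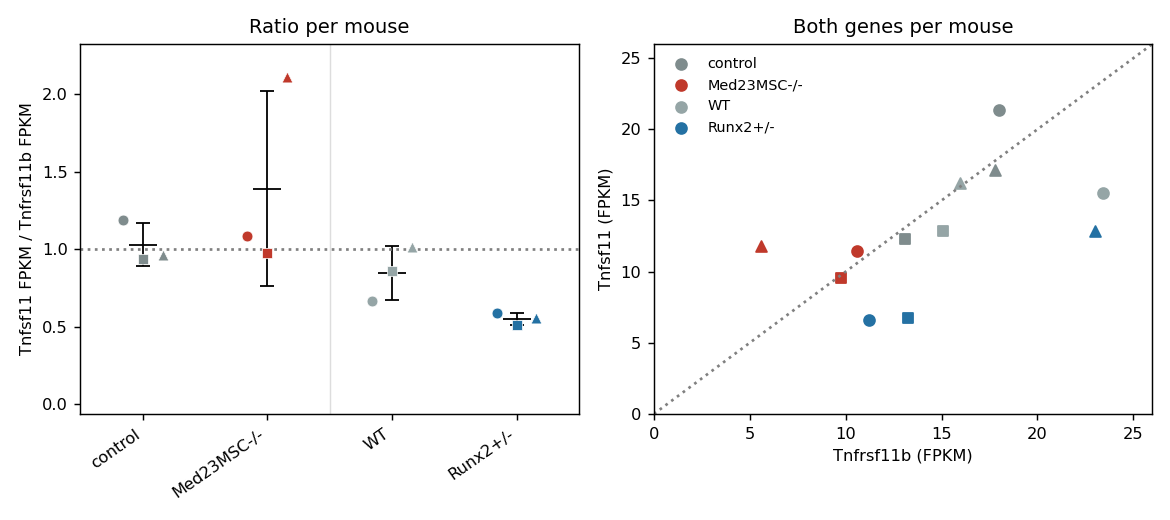
Left, *Tnfsf11* FPKM divided by *Tnfrsf11b* FPKM in each mouse (y axis, from 0), with the mean and SD of each group and a dotted line at 1. Right, *Tnfsf11* FPKM against *Tnfrsf11b* FPKM in the same mice, with a dotted line where both are equal. The 3 *Runx2*+/- mice lie between 0.508 and 0.586, below the WT mice, and *Med23*MSC-/- mouse 3 lies at 2.11.

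The ligands of CSF1R were lower in *Med23*MSC-/- calvaria. *Csf1* (chr3:107741048-107760469, minus strand), the main macrophage growth factor, measured 31.6, 26.6 and 22.1 FPKM in control and 15.7, 17.1 and 14.8 FPKM in *Med23*MSC-/- mice. All mutant mice were below the lowest control. The log2 fold change was -0.71 (SE 0.13, 95% interval -1.02 to -0.39), just short of the threshold (limma adjusted p = 0.0542). With the spread taken from all 12 mice it passed (limma adjusted p = 0.0123). It did not pass with rescaled FPKM (limma adjusted p = 0.0672), with the muscle markers as a covariate (limma adjusted p = 0.204), among male mice (limma adjusted p = 0.128) or without any 1 mouse (limma adjusted p from 0.0886 to 0.182). For *Runx2* haploinsufficiency *Csf1* measured 19.97, 21.8 and 21.3 FPKM in WT and 21.5, 17.6 and 17.9 FPKM in *Runx2*+/- mice. These groups overlapped, with mutant mouse 1 at the WT level. The log2 fold change was -0.14 (SE 0.10, limma adjusted p = 0.552), with an interval of -0.37 to 0.09. The difference between the sets was -0.56 (SE 0.17, limma adjusted p = 0.149) and was not called. Its interval of -0.94 to -0.19, which is not adjusted, did not hold 0. For this difference 15.3% of all genes tested had an unadjusted limma p under 0.05.

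*Il34* (chr8:110741829-110805949, minus strand), the second CSF1R ligand, measured 6.28, 7.63 and 6.57 FPKM in control and 3.84, 4.48 and 3.79 FPKM in *Med23*MSC-/- mice. The groups were well apart, with little spread within each. It fell by 0.63 on the log2 scale (SE 0.11, 95% interval -0.89 to -0.38, limma adjusted p = 0.0446). *Runx2*+/- mice measured 4.84, 6.73 and 8.15 FPKM and WT mice 7.09, 7.37 and 5.44 FPKM. The groups overlapped completely, and the log2 fold change was -0.03 (SE 0.18, limma adjusted p = 0.962), with an interval of -0.44 to 0.39. With the muscle markers as a covariate it was -1.08 (SE 0.35, limma adjusted p = 0.544). The difference between the sets was -0.61 (SE 0.22, limma unadjusted p = 0.0186, limma adjusted p = 0.221).

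*Sema3a* (chr5:13124822-13603485, plus strand), which restrains osteoclasts and promotes osteoblasts, was higher in both mutants. It measured 8.68, 7.69 and 7.95 FPKM in control and 11.2, 11.7 and 12.7 FPKM in *Med23*MSC-/- mice. The groups did not overlap, and it rose by 0.50 on the log2 scale (SE 0.09, 95% interval 0.29 to 0.71, limma adjusted p = 0.0495). WT mice measured 8.48, 7.61 and 8.39 FPKM and *Runx2*+/- mice 11.02, 9.66 and 10.99 FPKM. Here too all mutant mice were above all WT mice, with a log2 fold change of 0.33 (SE 0.09, 95% interval 0.12 to 0.55, limma adjusted p = 0.126), or 0.29 with the muscle markers as a covariate (limma adjusted p = 0.806). The changes in the 2 sets differed by 0.17 (SE 0.12, limma adjusted p = 0.560).

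The calls of *Il34* and *Sema3a* were close to the threshold. Leaving out any 1 of the 6 mice of the *Med23* set removed both, with limma adjusted p from 0.0716 to 0.170 for *Il34* and from 0.0902 to 0.155 for *Sema3a*, while their log2 fold changes stayed between -0.70 and -0.56 and between 0.45 and 0.55. Both calls were also lost among male mice alone (-0.53 and 0.41), with the muscle markers as a covariate (-0.47 and 0.43) and with rescaled FPKM (-0.72 and 0.41). Neither was called without the filter on low values or without moderation.

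*Cxcl12* (chr6:117168535-117181368, plus strand), the chemokine of the marrow niche that retains blood-forming cells, measured 79.2, 116 and 114 FPKM in control and 153, 157 and 155 FPKM in *Med23*MSC-/- mice. The mutant mice agreed closely and were all above the controls. The difference was 0.60 on the log2 scale (SE 0.15, 95% interval 0.26 to 0.95, limma adjusted p = 0.0882), and among male mice alone it was 0.96 (limma adjusted p = 0.115). The *Runx2* set gave 139, 118 and 141 FPKM in WT and 241, 190 and 177 FPKM in *Runx2*+/- mice. All mutant mice were again above, and the log2 fold change was 0.60 (SE 0.13, 95% interval 0.29 to 0.91, limma adjusted p = 0.0722), or 1.17 with the muscle markers as a covariate (limma adjusted p = 0.517). The changes of the 2 sets differed by 0.00 (SE 0.21, 95% interval -0.46 to 0.47, limma adjusted p = 0.995).

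*Ccl2* (chr11:82035577-82037452, plus strand), the monocyte chemoattractant, measured 11.98, 24.02 and 20.95 FPKM in control, 26.1, 23.7 and 16.1 FPKM in *Med23*MSC-/-, 18.9, 20.1 and 15.6 FPKM in WT and 14.9, 17.1 and 25.02 FPKM in *Runx2*+/- mice. Both mutants overlapped their controls. *Med23*MSC-/- mice differed from controls by 0.23 (SE 0.27, 95% interval -0.41 to 0.86, limma adjusted p = 0.670), and *Runx2*+/- from WT mice by 0.04 (SE 0.18, 95% interval -0.39 to 0.46, limma adjusted p = 0.953). *Il6* (chr5:30013114-30019975, plus strand), a cytokine that acts mainly through the osteoblast lineage, was at the edge of detection. It measured 0.535, 0.913 and 1.13 FPKM in control, 0.158, 0 and 0.155 FPKM in *Med23*MSC-/-, 0.486, 0.151 and 0.610 FPKM in WT and 0.147, 0.322 and 0 FPKM in *Runx2*+/- mice. All *Med23*MSC-/- mice were below all controls, and the *Runx2* set overlapped. The estimated number of fragments was also lower in every *Med23*MSC-/- mouse than in any control, and its part in this was not tested. Only 1 mouse reached 1 FPKM, so *Il6* was not tested. In a fit without the filter it was at -0.74 in the *Med23* set (limma adjusted p = 0.104) and at -0.29 in the *Runx2* set (limma adjusted p = 0.527).

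Of the 7 members tested in the *Med23* set, 1 was called lower and 1 higher, where 1.57% of all genes tested were called (0.559% lower and 1.01% higher). These were 73 genes lower and 132 higher, and with FPKM rescaled to the same sum per mouse they were 65 and 41, with 0 members. At an unadjusted limma p under 0.05 there were 6 of 7 members, against 21.3% of all genes tested. All mutant mice were below all controls for 4 of these members, against 7.68% of all genes tested, and above them for 2, against 19.6% (27.3% in either direction). In the *Runx2* set 0 of 7 were called by limma, where 1.89% of all genes tested were called (1.49% lower and 0.398% higher), and 3 of 7 had an unadjusted p under 0.05, against 15.4%. There 1 member was below in all mutant mice, against 10.4% of all genes tested, and 2 were above, against 10.7% (21.1% in either direction). The median log2 fold change over the 7 members was -0.56 in the *Med23* set and -0.03 in the *Runx2* set, and 0.06 and 0.02 over all genes tested. The sets share no mice. Of the 7 members, 7 had a change of the same sign in both, 4 below 0 and 3 above, against 56.8% of all genes tested, but the values of *Il34* and *Ccl2* in the *Runx2* set lay near 0 and changed sign when single mice were left out. No member was called in the limma test of the difference between the sets, in which 0.153% of all genes were called (0.0919% below 0 and 0.0613% above). In bulk tissue, fewer cells of a type and less RNA per cell cannot be told apart.

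**Figure D3:**
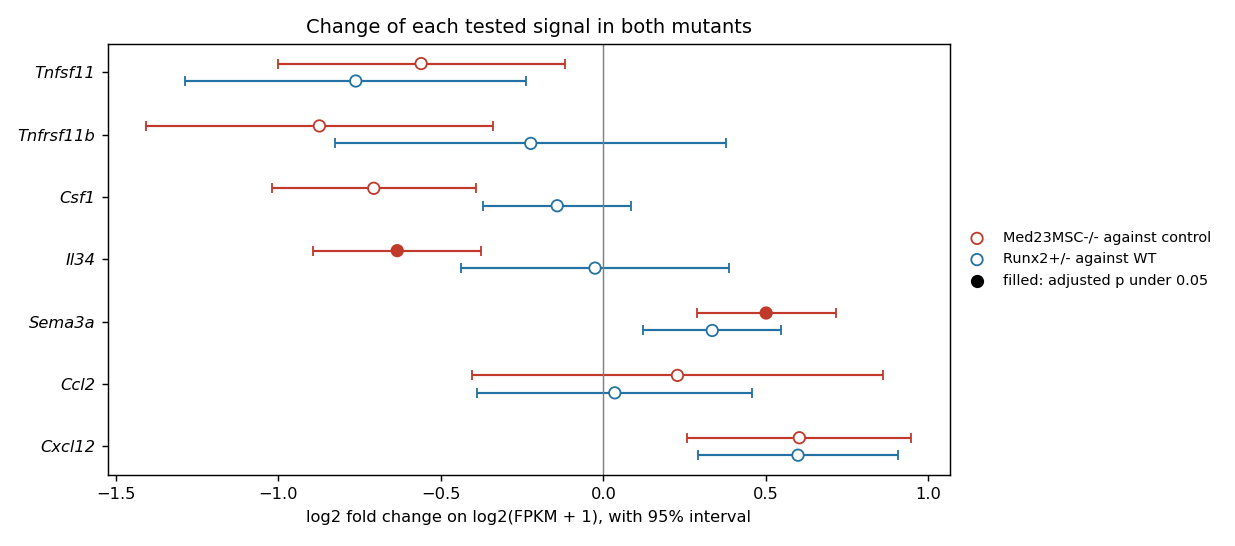
Log2 fold change on log2(FPKM + 1) (x axis) of the 7 members tested, in *Med23*MSC-/- against control mice and in *Runx2*+/- against WT mice, with 95% limma intervals. Filled points passed the threshold, which were *Il34* at -0.63 and *Sema3a* at 0.50 in the *Med23* set. *Cxcl12* is at 0.60 in both sets, and *Csf1* and *Il34* lie near 0 in the *Runx2* set.

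For *Csf1*, *Cxcl12*, *Sema3a* and *Il34* there is more than 1 RefSeq transcript in the files, and the split of a gene over its transcripts is an estimate. In the whole-table fit of 16458 transcripts, limma called 0 (0.00%) in the *Med23* set and 0.0851% in the *Runx2* set, and no transcript of a member was called. The *Csf1* transcript NM_001113529 measured 8.22, 8.85 and 7.31 FPKM in control and 1.39, 3.48 and 2.53 FPKM in *Med23*MSC-/- mice, and these did not overlap. Its log2 fold change was -1.44 (limma adjusted p = 0.0935), and its share of *Csf1* was 30.8% ± 4.18 in control and 15.4% ± 5.93 in *Med23*MSC-/- mice. The share of the main transcript NM_007778 was 59.1% ± 1.27 and 68.8% ± 6.27. *Cxcl12* was mostly NM_021704, whose share was 76.6% ± 1.41 in control and 82.8% ± 0.136 in *Med23*MSC-/- mice and 79.2% ± 2.03 in WT and 81.8% ± 0.911 in *Runx2*+/- mice. The ranges of that share did not overlap in either set. *Il34* was mostly NM_001135100, at 88.6% ± 8.23 in control and 85.6% ± 10.2 in *Med23*MSC-/- mice. *Sema3a* split differently from mouse to mouse, with NM_009152 at 86.6% of it in control mouse 1 and 30.6% in control mouse 3.

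**Figure D4:**
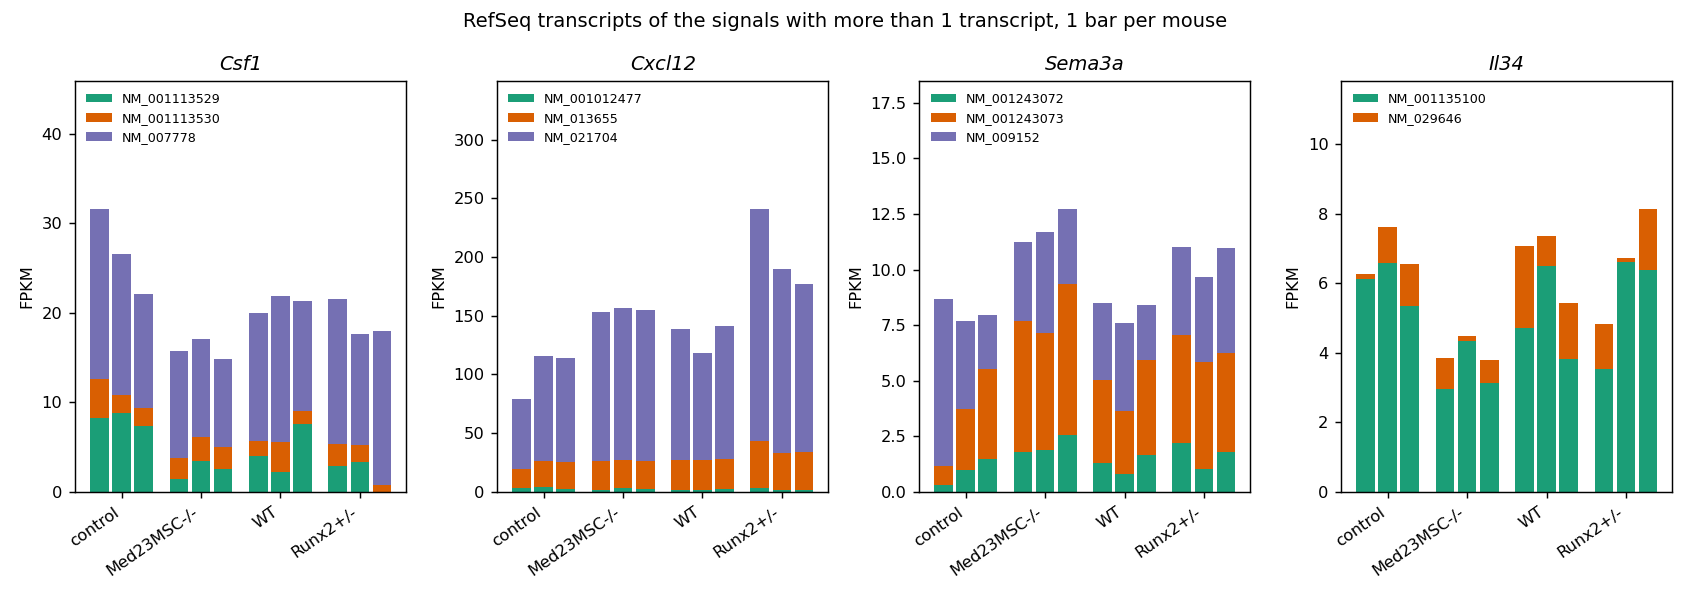
FPKM (y axis, from 0) of each RefSeq transcript of *Csf1*, *Cxcl12*, *Sema3a* and *Il34*, stacked, with 1 bar per mouse. The part of NM_001113529 in *Csf1* is 1.39 to 3.48 FPKM in *Med23*MSC-/- and 7.31 to 8.85 FPKM in control mice, and NM_021704 makes up most of *Cxcl12* in every mouse.

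Genes of the receiving side of these signals were followed as lists, in bulk tissue that does not show which cells made the RNA. Of 14 receptors of the members, 0 were called by limma in either set. At an unadjusted p under 0.05 there were 1 in the *Med23* set and 4 in the *Runx2* set, against 21.3% and 15.4% of all genes tested. The median log2 fold changes of the receptors were -0.17 and 0.02. *Csf1r*, the receptor of both *Csf1* and *Il34*, had group means of 89.4 FPKM in control and 60.6 FPKM in *Med23*MSC-/- mice and a log2 fold change of -0.52 (SE 0.23, limma adjusted p = 0.244). In the *Runx2* set it was at -0.25 (SE 0.09, limma adjusted p = 0.232). *Tnfrsf11a*, which encodes RANK, was at 6.71 ± 1.40 FPKM in WT and 3.85 ± 0.856 FPKM in *Runx2*+/- mice, with a log2 fold change of -0.67 (SE 0.18, limma adjusted p = 0.115). All mutant mice were below all WT mice, as for 10.4% of all genes tested. In the *Med23* set the 14 receptors, *Tnfrsf11a* among them, lay between -0.52 and 0.15. The *Cxcl12* receptors *Cxcr4* and *Ackr3* were at -0.21 and -0.39 in the *Med23* set and at 0.09 and -0.17 in the *Runx2* set, and *Nrp1*, the *Sema3a* receptor neuropilin 1, was at 0.03 and 0.07.

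The next list held 16 genes of RANK and M-CSF signalling and osteoclast differentiation. Of these, 3 fell and 0 rose in *Runx2*+/- calvaria, where 1.49% of all genes tested were called lower. Which cells made these RNAs in the bulk tissue was not tested. All 16 were below 0, against 43.9% of all genes tested, with a median of -0.39, and for 10 every mutant mouse was below every WT mouse (10.4% of all genes tested). *Spi1*, the myeloid transcription factor PU.1, fell by 0.64 on the log2 scale (SE 0.08, limma adjusted p = 0.0165). *Dcstamp*, needed for the fusion of precursors, fell by 0.98 (SE 0.13, limma adjusted p = 0.0184), and *Atp6v0d2*, a subunit of the proton pump, fell by 0.85 (SE 0.11, limma adjusted p = 0.0163). Of 9 resorption markers 4 fell in the *Runx2* set, with a median of -0.63, and for all 9 the same held. These 4 were *Car2*, carbonic anhydrase II, at -1.24 (limma adjusted p = 0.00540), *Calcr*, the calcitonin receptor, at -1.03 (limma adjusted p = 0.0320), *Tcirg1*, a proton pump subunit, at -0.58 (limma adjusted p = 0.0403), and *Ostm1*, the partner of the chloride channel, at -0.58 (limma adjusted p = 0.0484). The 9 markers summed to 5195 to 6471 FPKM in WT and 3390.05 to 4221 FPKM in *Runx2*+/- mice. Leaving out 1 mouse at a time, *Car2* was called in 6 of 6 fits, *Atp6v0d2* in 5, *Spi1* and *Dcstamp* in 4, *Calcr* in 1 and *Tcirg1* and *Ostm1* in 0. Without WT mouse 1, the mouse with *Xist*, *Car2* alone of these 7 was called (-1.14, limma adjusted p = 0.0169), and the medians of both lists were -0.37 and -0.58. The 10 muscle markers were all called lower in these mice, with a median of -4.76 and sums that did not overlap, so that their effect and that of the genotype cannot be told apart. With them as a covariate the medians were -0.78 and -0.86, and limma called 0 of either list.

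In the *Med23* set 0 of the 16 signalling genes were called by limma, with 16 below 0 and a median of -0.27. Of them 4 had an unadjusted p under 0.05, against 21.3% of all genes tested. Of the 9 resorption markers 0 were called (1 at an unadjusted p under 0.05), with a median of -0.34, and their sum was 4600.2 to 8149 FPKM in control and 4194 to 5296 FPKM in *Med23*MSC-/- mice, which overlapped. Control mouse 1, the only male control, had the highest sum, and against it alone the medians of the male mice were -0.42 for the signalling genes and -0.90 for the resorption markers. Without this mouse the medians were -0.14 and -0.17. The muscle markers lay on the other side in this set, with 0 of 10 called, 10 above 0 and a median of 2.99. Of 6 monocyte and macrophage markers in the files, 0 were called in either set, and the lowest log2 fold change was that of *Csf1r* in the *Med23* set. All 6 lay below 0 in both sets, with medians of -0.26 and -0.13, against 38.7% and 43.9% of all genes tested. Without *Med23*MSC-/- mouse 3 the median in the *Med23* set was 0.07, with 2 markers below 0.

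**Figure D5:**
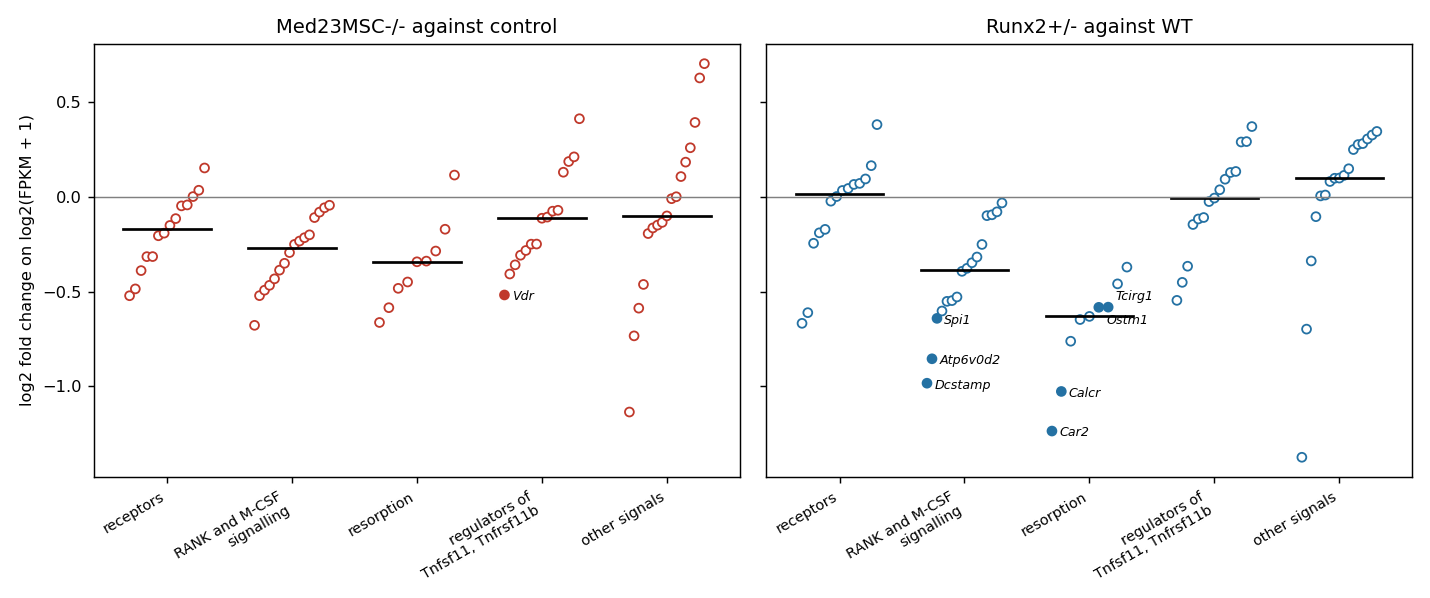
Log2 fold change on log2(FPKM + 1) (y axis) of each tested gene of 5 lists in both sets, sorted within a list, with black lines at the median of each list. Filled and named points passed the threshold. The 16 signalling genes and the 9 resorption markers lie below 0 in the *Runx2* set, with medians of -0.39 and -0.63, and *Vdr* is the only filled point in the *Med23* set.

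Genes tied to the sending side were followed in the same way. Of 20 regulators of *Tnfsf11* and *Tnfrsf11b*, 15 could be tested. Among these 1 fell in the *Med23* set, where 0.559% of all genes tested were called lower. This was *Vdr*, the vitamin D receptor through which vitamin D induces *Tnfsf11*, at 39.7, 35.8 and 33.2 FPKM in control and 24.5, 25.1 and 25.3 FPKM in *Med23*MSC-/- mice. These groups were well apart, and it fell by 0.52 on the log2 scale (SE 0.09, limma adjusted p = 0.0430). Leaving out 1 mouse at a time its limma adjusted p lay between 0.0886 and 0.168. *Vdr* in the *Runx2* set was at -0.11 (SE 0.19, limma adjusted p = 0.845), and 0 of the 15 regulators were called by limma there. In each set 5 of the 15 had an unadjusted p under 0.05, against 21.3% and 15.4% of all genes tested. The medians of the regulators were -0.11 and -0.01. Of 20 other osteoblast-lineage signals 17 could be tested and 0 were called by limma in either set. An unadjusted p under 0.05 held for 5 and 3, against 21.3% and 15.4% of all genes tested. The medians of these signals were -0.10 and 0.10. Among them *Sost*, the osteocyte inhibitor of WNT signalling, had group means of 16.2 FPKM in control and 7.07 FPKM in *Med23*MSC-/- mice and a log2 fold change of -1.14 (SE 0.25, limma adjusted p = 0.0715).

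Of the 11 osteoblast markers 2 fell in the *Med23* set, where 0.559% of all genes tested were called lower. These were the osteocalcin genes *Bglap* (-1.95, limma adjusted p = 0.0401) and *Bglap2* (-1.77, limma adjusted p = 0.0327), whose near-identical sequences leave the split of reads between them uncertain. Leaving out 1 mouse at a time, *Bglap* was called in 0 of 6 fits and *Bglap2* in 1. All 11, *Runx2* among them, lay below 0 (-1.95 to -0.31), against 38.7% of all genes tested. Their median was -0.44, and their sum was 54174 to 57952 FPKM in control and 26909.7 to 35645 FPKM in *Med23*MSC-/- mice. The decrease of *Il34*, and the lower *Csf1*, *Tnfsf11* and *Tnfrsf11b*, thus stood beside lower osteoblast markers, and the part of the osteoblast markers in them was not tested. For *Runx2*+/- mice 0 of 11 osteoblast markers were called by limma (2 at an unadjusted p under 0.05, against 15.4% of all genes tested). With rescaled FPKM, however, *Ibsp* and *Spp1*, encoding bone sialoprotein and osteopontin, were called lower. The 11 had a median of 0.08 and sums that overlapped (43240.2 to 50841 FPKM in WT and 31833 to 44272 FPKM in *Runx2*+/- mice). Of 4 tested osteocyte markers 0 were called in either set (2 and 0 at an unadjusted p under 0.05, against 21.3% and 15.4% of all genes tested). All 4 were below 0 in the *Med23* set, with a median of -0.89, and 3 in the *Runx2* set, with a median of -0.14. In the *Med23* set their sum was 313 to 520 FPKM in control and 168 to 334 FPKM in mutant mice, and their part in the lower *Tnfsf11* was not tested. Among the other cell types, *Vwf* of 5 endothelial markers rose (1.33, limma adjusted p = 0.0211) and *Col2a1* of 5 tested chondrocyte markers fell (-0.86, limma adjusted p = 0.0404) in the *Med23* set, and *Pecam1* of the endothelial markers fell (-0.57, limma adjusted p = 0.0184) in the *Runx2* set. The other markers of these lists were not called. In the *Med23* set 3 of 5 endothelial markers were below 0, with a median of -0.11, and 3 of 5 chondrocyte markers, with a median of -0.76. Leaving out 1 mouse at a time, *Vwf* was called in 1 of 6 fits, *Col2a1* in 0 and *Pecam1* in 3. Lymphocyte, keratinocyte and neuron markers were low (sums of at most 3.62, 4.41 and 15.5 FPKM), with 1, 1 and 2 of them high enough to be tested and 0 called.

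The genes whose levels followed each member most closely over the 12 mice, after the mean of each set was removed, are given as a description. All points share their libraries and the genotype differences above. *Tnfsf11* was most like *Neu1* (r = 0.956), a lysosomal sialidase, *Lgals3* (0.941), encoding galectin 3, and *Wnt7b* (0.927). *Csf1* was most like *Sema7a* (r = 0.973), *Dusp6* (0.949), a phosphatase of ERK, and *Slc29a1* (0.945). *Il34* was most like *Prss23* (r = 0.975), *Fam13c* (0.895) and *Fbxo32* (0.886). *Sema3a* was most like *Cbln2* (r = 0.971), *Agtr2* (0.970), an angiotensin receptor, and *Alcam* (0.948). *Cxcl12* was most like *Slc16a1* (r = 0.953), a lactate transporter, *Rab15* (0.949) and *Foxd1* (0.942). *Tnfrsf11b* was most like *Il13ra1* (r = 0.925), *Ly9* and *Dpp7*, *Il6* most like *Id1* (0.923), *Heyl* and *Rgs5*, and *Ccl2* most like *Tlr13* (0.858), *Tspan5* and *Irf7*. None of the 8 members was among the closest genes of another.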

How the data were processed

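The authors extracted total RNA with Trizol, made 1 TruSeq library per mouse and deposited 1 file per mouse with values for 30411 RefSeq transcripts. Bowtie 0.12.8 and the build mm10 are named in the submitters' processing notes, and the program that estimated the deposited values is not given in the sources used here. The deposited values were taken as FPKM, inferred from their dependence on transcript length and their sums of 891329 to 1068933 per mouse. The spacing of the lowest values corresponds to roughly 7900000 to 11700000 fragments per mouse. This was 9100000 to 11700000 in control and 7900000 to 8900000 in *Med23*MSC-/- mice, which did not overlap. In WT mice it was 9100000 to 11400000 and in *Runx2*+/- mice 7900000 to 10000000. No counts were available to test, so limits of counting could not be computed.

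Transcripts were summed per gene symbol, with 29835 matched through the RefSeq table, 180 through GENCODE M21 and 396 kept by identifier. Genes that reached 1 FPKM in 3 or more of the 12 mice were fitted with limma 3.58.1 (R 4.3.3, trend) on log2(FPKM + 1), in each set of 6 mice and, for the difference between sets, in all 12. P-values were adjusted by Benjamini-Hochberg over all 13059 genes, with calls at an adjusted p under 0.05. Intervals are 95%. The ratio was tested by exact two-sided permutation, and its difference between sets by permuting genotypes within both sets. Groups and replicate numbers came from the deposited labels. The code was tested on simulated data with 200 changed genes. Tables and figures were made with Python 3.11.15, pandas 2.3.3, numpy 2.4.6 and matplotlib 3.10.9.

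The members and lists were chosen with earlier results of these data known. Named genes were the members, the targeted genes, list genes called in either set, the 3 genes most like each member over 12 mice, and marker genes that moved with a member. *Csf1r*, *Tnfrsf11a*, *Cxcr4*, *Ackr3*, *Nrp1* and *Sost* were named after their values were seen. Alternatives were another pseudocount (0.1) and filters, rescaled FPKM, 1 fit of 12 mice, a replicate block, an unmoderated model, a muscle covariate, male mice only, leaving out each mouse and, chosen after seeing the data, a fit per transcript.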

Additional observations from a re-analysis of the deposited data

Results flagged for a closer look

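The change in the log2 *Tnfsf11* to *Tnfrsf11b* ratio differed between the sets by 0.95 (exact permutation p = 0.035, adjusted over 3 tests 0.105). That p-value refers to no effect of genotype in either set, and equality of the 2 changes was not tested. The ratio was below that of WT mice in all *Runx2*+/- mice and overlapped that of controls in *Med23*MSC-/- mice. Of the genes in the lists, *Car2* changed differently in the 2 sets, by 1.35 on the log2 scale (0.11 in the *Med23* set and -1.24 in the *Runx2* set, limma adjusted p of the difference = 0.0422). The muscle marker *Pvalb* also changed differently, by 4.36 (1.34 and -3.01, limma adjusted p of the difference = 0.0353), and its levels were 0.918 to 2.45 FPKM in control, 2.15 to 11.3 FPKM in *Med23*MSC-/-, 5.91 to 15.6 FPKM in WT and 0 to 0.547 FPKM in *Runx2*+/- mice. Both calls were lost without the filter on low values, among male mice (0.91 and 4.09) and with the muscle markers as a covariate (0.63 and 2.09). Leaving out 1 of the 12 mice at a time, the difference was called in 3 of 12 fits for *Car2* (1.19 to 1.52) and in 5 of 12 for *Pvalb* (3.85 to 4.83).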

How the results depend on the processing

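The number of genes called in the *Med23* set, 205, was 1 without the filter on low values, 717 with all 12 mice in 1 fit, 106 with FPKM rescaled, 0 without moderation (2356 at an unadjusted p under 0.05), 1 with the muscle covariate, 0 among male mice (2153 at an unadjusted p under 0.05) and 0 to 35 when 1 mouse was left out. The 2 members called there became 0 without the filter, with rescaled FPKM, without moderation, with the muscle covariate, among male mice, per transcript and without any 1 mouse (0 to 0), and 4 with all 12 mice in 1 fit (*Csf1* and *Cxcl12* added). In the *Runx2* set the 247 genes called were 5 without the filter, 95 with all 12 mice in 1 fit, 1 without moderation, 2 with the muscle covariate, 34 among male mice and 34 to 169 without 1 mouse, and the members called were 0 to 1. The 20 genes that differed between the sets were 6 without the filter, 37 with rescaled FPKM, 0 with the muscle covariate (628 at an unadjusted p under 0.05), 1 among male mice and 2 to 164 without 1 mouse. Rescaling moved the median difference between sets over all genes from 0.04 to -0.09. The difference in the log2 ratio lay between 0.607 and 1.16 without 1 mouse. Among changes that were not called, these turned sign: in the *Runx2* set *Il34* with rescaled FPKM (0.0027) and among male mice (0.020), and *Csf1* (0.069) and *Ccl2* (-1.20) with the muscle covariate, and in the difference between the sets *Cxcl12* with rescaled FPKM (-0.14), *Tnfsf11* with the muscle covariate (-0.29) and among male mice (-0.18) and *Il34* with the muscle covariate (0.073). Without 1 mouse the values ranged from -0.056 to 0.43 for *Ccl2* in the *Med23* set, from -0.17 to 0.15 for *Il34* and from -0.17 to 0.18 for *Ccl2* in the *Runx2* set, and from -0.091 to 0.40 for *Ccl2* and from -0.17 to 0.14 for *Cxcl12* in the difference. The cause was not tested for any of these.

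Replicate numbers are shared by the groups but nothing in the labels ties them to a litter, and the correlations of same-numbered mice were 0.180, 0.259 and 0.0527 in the *Med23* set and 0.00482, -0.0474 and -0.0836 in the *Runx2* set, so the numbers were not taken as pairs. Each control mouse of the *Med23* set correlated best with its own number, and in the *Runx2* set none did. With the replicate block the genes called were 273 in the *Med23* set, 90 in the *Runx2* set and 136 in the difference. The members called with the block were 2 in the *Med23* set, *Csf1* (limma adjusted p = 0.0487) and *Il34* (limma adjusted p = 0.0483), while *Sema3a* was not called (limma adjusted p = 0.0774), and 0 in the *Runx2* set. Among the marker lists, the block called 9 of 10 muscle markers higher and the osteocyte markers *Sost* and *Dmp1* lower in the *Med23* set, where the fit without it called 0 of either list, and 4 of 10 muscle markers lower in the *Runx2* set, where the fit without it called 10. Groups of 3 mice allow no p under 0.1 for the ratio within a set.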
